A study of Homo sapiens with 24 samples.

Results

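The miR-17-92 and miR-106b-25 clusters are paralogous groups of microRNA genes, and their levels and chromatin were followed here across HEK293 cells that overexpressed enhanced green fluorescent protein or a nuclear lamin. The members were all intervals in the deposited small RNA table of type miRNA or precursor_RNA that carried the name of MIR17, MIR18A, MIR19A, MIR20A, MIR19B1 or MIR92A1 (miR-17-92) or of MIR106B, MIR93 or MIR25 (miR-106b-25). This gave 11 intervals for the 9 genes, of 5148 microRNA intervals and 175946 intervals in all. MIR25 and MIR106B each had a hairpin interval and a shorter mature interval, and the other 7 genes had 1 interval each. The mature interval lies inside the hairpin interval, so counts and medians over the 11 intervals include MIR25 and MIR106B more than once. The clusters were chosen by their small RNA counts in LMNB2 against GFP, a difference already known and led by MIR19A, so every small RNA value that sets LMNB2 against another group is given below as a description, with no test. All 11 intervals passed the filter on low counts in both assays.

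HEK293 is an established human embryonic kidney cell line, labelled wild type. The 4 groups were overexpression of eGFP (the control, called GFP below), LMNA (lamin A/C), LMNB1 (lamin B1) or LMNB2 (lamin B2), each with 3 small RNA libraries and 3 ATAC libraries. ATAC-seq measures chromatin that a transposase can reach. Lamins are filament proteins that line the inside of the nuclear envelope. How the genes were delivered and for how long they were expressed is not given in the sources used here, nor is whether replicates were separate cultures, so p-values measure the spread between these libraries only.

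MicroRNAs are cut from hairpin precursors, and either arm of a hairpin can give a mature strand of about the length printed below. The mature strand guides Argonaute proteins to messenger RNAs mainly through its seed, the bases just behind its 5′ end. The miR-17-92 primary transcript, MIR17HG, is a known target of MYC and E2F factors and is amplified or overexpressed in many cancers, where its products favour proliferation and survival, with the miR-19 strands as its chief oncogenic component in lymphoma. The miR-106b-25 hairpins lie inside MCM7, a gene for a subunit of the replicative helicase, and are made from its transcript.

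In GRCh38 coordinates the 6 miR-17-92 intervals lay on the plus strand of chromosome 13, from 91350630 (first base of MIR17) to 91351407 (last base of MIR92A1), inside the long non-coding RNA gene MIR17HG (91347687 to 91354577 in RefSeq). MIR19A, the interval that led the choice, spanned 91350914 to 91350986. The miR-106b-25 intervals lay on the minus strand of chromosome 7, from 100093535 (last base of the MIR25 hairpin interval) to 100094099 (first base of that of MIR106B), inside the protein-coding gene MCM7 (100092728 to 100101397).

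The mature strands show how the 9 genes group. They are written 5′ to 3′ with the seed (bases 2 to 8) in capitals, from RefSeq (GRCh38.p14), which held both mature strands of all 9 genes. For each gene the strand best known as the functional one is shown. MIR17, MIR20A, MIR106B and MIR93 share 1 seed across both clusters, the miR-17 seed.
hsa-miR-17-5p: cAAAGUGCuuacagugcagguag
hsa-miR-20a-5p: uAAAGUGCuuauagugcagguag
hsa-miR-106b-5p: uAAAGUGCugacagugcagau
hsa-miR-93-5p: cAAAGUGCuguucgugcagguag
The MIR18A strand has a seed of its own among the members.
hsa-miR-18a-5p: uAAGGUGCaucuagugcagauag
The miR-19 seed occurs in miR-17-92 only, in MIR19A and MIR19B1.
hsa-miR-19a-3p: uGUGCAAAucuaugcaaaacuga
hsa-miR-19b-3p: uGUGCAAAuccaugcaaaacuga
The miR-92 seed is again shared by both clusters, through MIR92A1 and MIR25.
hsa-miR-92a-3p: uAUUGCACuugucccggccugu
hsa-miR-25-3p: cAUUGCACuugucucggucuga

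The counted intervals did not follow these strands in full, which bears on what a count means. In the 6 miR-17-92 genes the interval was the 3p strand with 25 bases added on each side, and in MIR25 and MIR106B the mature interval was the 5p strand with the same margin. The hairpins of MIR17, MIR19A and MIR25 below have the counted part in capitals and the part outside the interval (for MIR25, outside its mature interval) in lower case (RefSeq, GRCh38.p14).
MIR17: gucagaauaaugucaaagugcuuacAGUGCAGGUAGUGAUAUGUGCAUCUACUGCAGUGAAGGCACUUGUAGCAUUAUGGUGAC
MIR19A: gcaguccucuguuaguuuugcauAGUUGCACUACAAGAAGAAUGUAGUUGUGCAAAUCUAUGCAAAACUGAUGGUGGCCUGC
MIR25: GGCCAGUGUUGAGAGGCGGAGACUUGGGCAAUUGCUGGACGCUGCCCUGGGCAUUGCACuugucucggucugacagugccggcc
Of miR-17-5p, 11 of 23 bases lay inside the MIR17 interval, and of miR-25-3p, 8 of 22 bases lay inside the MIR25 mature interval. Reads of both strands can therefore enter 1 count, and the strands of a hairpin cannot be told apart. The MIR25 mature interval held as many counts as the whole hairpin interval in 11 of 12 small RNA libraries, and 1597 of 1598 in LMNB2 replicate 2. The MIR106B mature interval held 84.6% of its hairpin counts in LMNA replicate 1 (95% Wilson interval 80.9 to 87.6) and 99.8% in GFP replicate 3 (99.4 to 99.9), with the other libraries between. These intervals cover counting error only.

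Small RNA libraries held 132507051 to 195074742 counts over all intervals, and ATAC libraries held 156043245 to 290158229 over the interval windows. The overexpressed genes could be followed through the intervals that overlap them most. The interval over LMNB1 had 118 to 135 CPM (counts scaled to a common library total and for composition) in LMNB1 libraries and 1.05 to 1.43 in the other 9. That over LMNB2 had 340.2 to 382 CPM in LMNB2 libraries and 1.53 to 1.99 elsewhere. Both reach well beyond the gene. The first runs from 126627727 to 126935934 on chromosome 5, around the 60398 bases of LMNB1. The second runs from 2414218 to 2654296 on chromosome 19, around the 28794 bases of LMNB2. The interval over LMNA covered 17037 of its 57509 bases and had 3 to 15 counts in every library, which checks nothing. MicroRNA intervals took 0.406% of all counts in GFP replicate 3 and 0.101% to 0.201% in the other 11 small RNA libraries. Of 481 microRNA intervals tested, 326 (67.8%) had their highest CPM in GFP replicate 3, against 13% of all intervals tested. Of 20 microRNA genes fixed as markers of other cell types, 4 passed the count filter (MIR126 and 3 MIR9 genes), the liver marker MIR122 reached 8 counts at most, and the erythroid marker MIR451A had 0 counts in all 12 libraries. The summed level of the 20 was 1.77, 3.37 and 10.9 CPM in GFP replicates 1 to 3, 2.45 to 3.39 CPM for LMNA, 2.73 to 3.93 for LMNB1 and 1.86 to 2.14 for LMNB2. GFP replicate 3 thus stood apart, and the main results that rest on GFP are given with and without it. The part of these features in the results was not tested.

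MIR92A1 and MIR25, which carry the miR-92 seed, were the most abundant members. Per kilobase of interval, the level of MIR92A1 was 462 ± 229 CPM for GFP (SD, n = 3), 375 ± 163 for LMNA, 410.2 ± 23.2 for LMNB1 and 267 ± 17.3 for LMNB2. The MIR25 mature interval had 274 ± 217, 205 ± 63.5, 211 ± 16.6 and 133 ± 12.7 CPM per kilobase in the same order. The libraries of these 2 overlapped for GFP and LMNA but not for LMNB1 and LMNB2. MIR19B1 came next in all 4 groups, with 159 ± 47.2, 189 ± 20.0, 186 ± 6.70 and 117 ± 11.7 CPM per kilobase. Its libraries overlapped those of MIR25 for GFP, LMNA and LMNB2 and lay below them for LMNB1. MIR17, MIR18A, MIR20A, MIR93 and the MIR106B mature interval lay together at 37.7 to 69.1 CPM per kilobase in GFP, within each other's spread. MIR19A was last in all 4 groups, from 7.11 ± 4.68 CPM per kilobase in GFP to 2.14 ± 0.343 in LMNB2. MIR19A and MIR19B1 share the miR-19 seed, and MIR19B1 counts were 10.0 to 73.4 times those of MIR19A within a library.

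**Figure D1:**
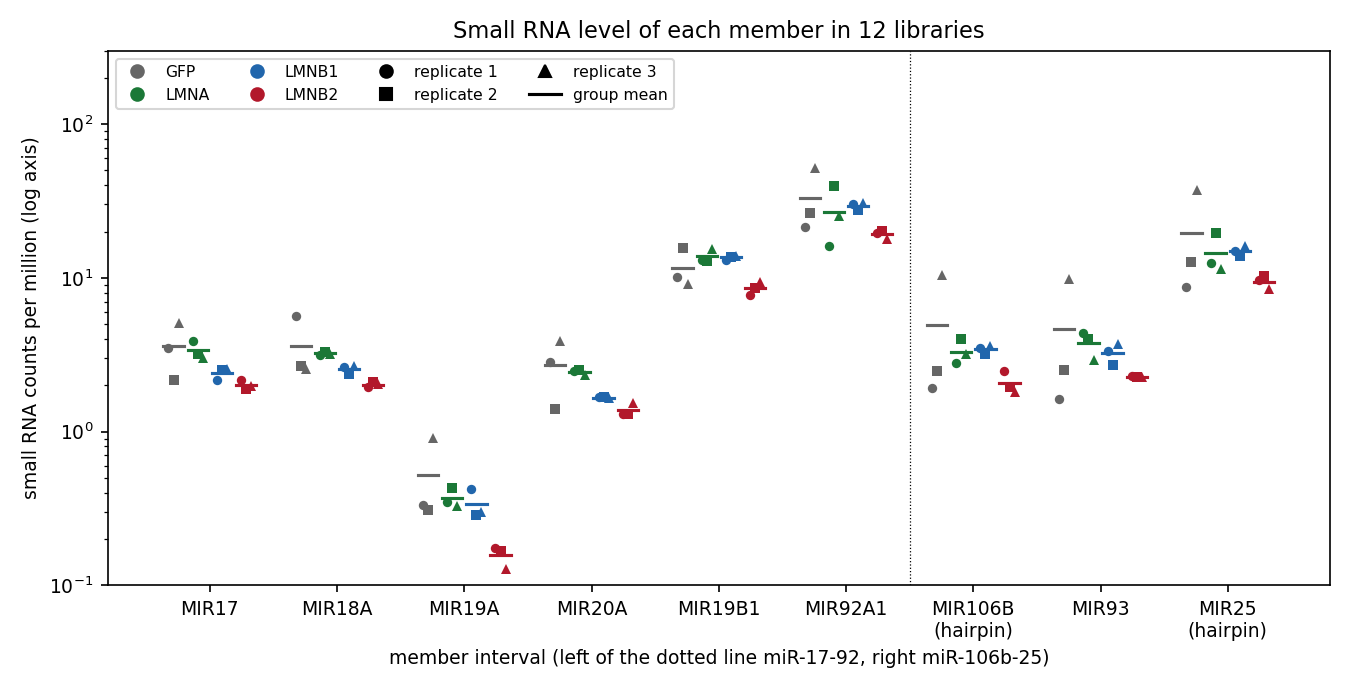
Small RNA CPM (log axis) of 9 member intervals, 1 per gene, in 12 libraries. Points are libraries (shape gives the replicate, colour the group) and bars are group means. GFP replicate 3 (grey triangles) is the highest library for 7 of the 9 intervals, and the LMNB2 points lie lowest for MIR17, MIR18A and MIR19A.

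The GFP libraries disagreed with each other over these clusters more than the lamin libraries did. MIR93, of the miR-17 seed, had 190, 341 and 1733 counts in GFP replicates 1 to 3. The lamin libraries gave 708, 576 and 499 (LMNA), 554, 446 and 639 (LMNB1), and 382, 355 and 319 (LMNB2). GFP thus held both the lowest and the highest count of the 12 libraries, and all 3 lamin groups lay within the GFP range.

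The MIR106B hairpin interval had the same layout in raw counts, but in CPM its lowest library was LMNB2 replicate 3 (1.81). Its counts were 225, 337 and 1854 (GFP), 447, 576 and 543 (LMNA), 583, 525 and 617 (LMNB1), and 409, 304 and 255 (LMNB2). MIR25 had 1008, 1718 and 6577 counts in GFP against 1190 to 2854 in the 9 lamin libraries. In CPM, GFP replicate 3 was 4.74-fold above the mean of GFP replicates 1 and 2 for the MIR106B hairpin, 4.72-fold for MIR93 and 3.48-fold for MIR25.

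In miR-17-92 the same library was less far out and not for every gene. GFP replicate 3 was 2.84-fold above the mean of the other GFP libraries for MIR19A, 2.19-fold for MIR92A1, 1.84-fold for MIR20A and 1.79-fold for MIR17. For MIR18A and MIR19B1 it was below them, at 0.619 and 0.713 of their mean. In all, 9 of 11 intervals had their highest CPM in GFP replicate 3, the exceptions being MIR18A (GFP replicate 1) and MIR19B1 (GFP replicate 2).

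**Figure D2:**
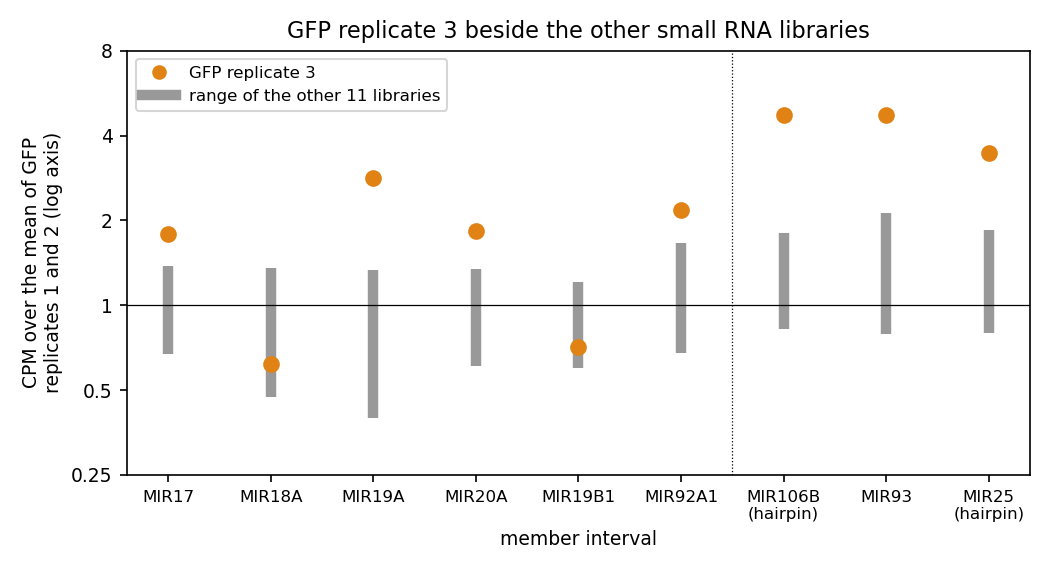
CPM in GFP replicate 3 (orange) divided by the mean of GFP replicates 1 and 2, for 9 member intervals on a log axis; grey bars span the other 11 small RNA libraries on the same scale. The orange point is above the grey bar for 7 intervals and inside it for MIR18A and MIR19B1, and the gap is widest in miR-106b-25.

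Some genes of the MIR17HG transcript had ratios in GFP replicate 3 outside those of the other libraries. MIR18A and MIR17 are neighbours in MIR17HG, and MIR18A had 0.507 counts for each MIR17 count in GFP replicate 3 and 0.812 to 1.60 in the other 11 libraries. MIR19B1 had 10.0 counts per MIR19A count in GFP replicate 3 and 30.1 to 73.4 elsewhere. MIR20A and MIR17 share the seed of their 5p strands, which lie only partly in the counted intervals. These genes kept 0.605 to 0.811 MIR20A counts per MIR17 count in all 12 libraries, GFP replicate 3 included (0.769). In miR-106b-25, MIR93 had 0.935 counts per MIR106B hairpin count in GFP replicate 3, inside the 0.844 to 1.58 of the others, and MIR25 had 3.55, just under their 3.59 to 5.26. Summed over their genes, miR-17-92 had 1.29 times the counts of miR-106b-25 in GFP replicate 3 and 1.98 to 3.58 times in the others. The ratios use 2 counts of 1 library, so library scaling does not enter them.

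No member of either cluster was called different between LMNA and GFP. With edgeR's quasi-likelihood test and Benjamini-Hochberg adjustment over 33893 intervals, 0 of 11 member intervals were called at an adjusted p under 0.05, where 0% of all intervals were called, and 0 had an unadjusted p under 0.05. DESeq2 called 0 of the 10 intervals to which it gave an adjusted p. The log2 fold changes ran from -0.69 (MIR106B mature interval, SE 0.55, adjusted p = 0.923) to 0.25 (MIR19B1, SE 0.22, adjusted p = 0.932), with 10 of 11 below 0 and a median of -0.30, against -0.05 over all intervals and -0.21 over 481 microRNA intervals. LMNA lay wholly below GFP for 0 of 11 intervals, where 5.34% of all intervals did so, and the libraries of the 2 groups overlapped for all 11.

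These values turned with GFP replicate 3. Without it, 10 of the 11 log2 fold changes for LMNA were above 0 (median 0.32), and MIR93 was called higher in LMNA (log2 fold change 0.93, SE 0.20, adjusted p = 0.0295 by edgeR), against -0.30 (SE 0.54, adjusted p = 0.976) with all libraries. In that fit 304 of 36091 intervals (0.842%) were called, against 0 with all libraries. The MIR106B hairpin interval came next, at 0.65 (SE 0.19, adjusted p = 0.109 by edgeR). Both belong to miR-106b-25 and share the miR-17 seed.

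LMNB1 libraries also gave no member call against GFP: 0 of 11 by edgeR, where 0.0384% of all intervals were called, and 0 by DESeq2. Of the 11, 2 (MIR20A and MIR17, both on MIR17HG) had an unadjusted p under 0.05, as did 1867 of all 33893 intervals. MIR20A had 331, 190 and 692 counts in GFP and 278, 273 and 284 in LMNB1. Its CPM was 2.71 ± 1.26 in GFP and 1.67 ± 0.0163 in LMNB1 (SD, n = 3), a log2 fold change of -0.70 (SE 0.25) with an adjusted p of 0.811 by edgeR. Without GFP replicate 3 it was -0.29 (SE 0.21, adjusted p = 0.699 by edgeR). The LMNB1 libraries were almost equal for MIR20A, and GFP replicate 2 lay below all of them.

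MIR17, the other one, had 408, 294 and 900 counts (GFP), 627, 466 and 516 (LMNA) and 358, 409 and 440 (LMNB1). Its log2 fold change for LMNB1 against GFP was -0.57 (SE 0.24, adjusted p = 0.861 by edgeR), and -0.18 (SE 0.19, adjusted p = 0.814) without GFP replicate 3. Over the 11 intervals the median was -0.51, with 10 below 0, against -0.05 over all intervals and -0.29 over microRNA intervals. Without GFP replicate 3 the median was 0.37 with 3 below 0, and the 5 miR-106b-25 intervals lay between 0.55 and 0.71. LMNB1 lay wholly below GFP for 0 of 11 intervals, against 5.29% of all intervals.

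LMNB1 and LMNA can be set against each other with neither GFP nor LMNB2 libraries in the contrast. Again 0 of 11 intervals were called by edgeR (0.0118% of all intervals) or by DESeq2. The median log2 fold change was -0.02, with 5 above 0 and 6 below. MIR20A had 400, 366 and 401 counts in LMNA and a log2 fold change of -0.56 (SE 0.25, adjusted p = 0.832 by edgeR). It was the 1 member interval with an unadjusted p under 0.05, as 1947 of all 33893 intervals had in this comparison. In CPM the 3 LMNB1 libraries (1.65 to 1.68) were below the 3 LMNA libraries (2.35 to 2.53) for MIR20A without overlap. The share of all intervals with this separation was not computed. MIR17 gave -0.49 (SE 0.24, adjusted p = 0.832 by edgeR).

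LMNB2 libraries had the lowest levels, given here as a description because this contrast chose the members. All 11 log2 fold changes against GFP were below 0, from -1.66 (MIR19A, SE 0.39) to -0.43 (MIR19B1, SE 0.22), with a median of -1.02, against -0.04 over all intervals and -0.83 over 481 microRNA intervals. Without GFP replicate 3 the median was -0.26, with 10 below 0, against 0.03 over all intervals. The comparisons with LMNA and LMNB1 gave medians of -0.67 and -0.66, again with all 11 below 0. The same LMNB2 libraries enter all 3 comparisons. The threshold used for the other contrasts was passed by 2.66% of all intervals, and member calls are not counted here. LMNB2 lay wholly below GFP for MIR17, MIR18A, MIR19A and MIR92A1, 4 of 11, where 10.2% of all intervals did so. The share of microRNA intervals was not computed, and no enrichment can be read from values that chose the members. In these bulk samples fewer cells of a type and less RNA per cell cannot be told apart.

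MIR19A had 39, 42 and 162 counts (GFP), 56, 62 and 56 (LMNA), 70, 47 and 52 (LMNB1), and 29, 26 and 18 (LMNB2). Its CPM was 0.519 ± 0.341, 0.368 ± 0.0530, 0.337 ± 0.0743 and 0.156 ± 0.0250 in that order (SD, n = 3). The 3 LMNB2 libraries were the lowest of the 12, as they were for MIR17 and MIR18A. These 3 of 11 stand beside 2.98% of all intervals and 13.3% of 481 microRNA intervals with the same separation. No enrichment can be read from this, because low LMNB2 values led the choice of the members. MIR19A counts were few, and without GFP replicate 3 its log2 fold change against GFP was -0.93 (SE 0.24).

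MIR17 had 357, 297 and 278 counts in LMNB2, or 1.90 to 2.15 CPM, just under the lowest GFP library (2.16 CPM). MIR18A had 654, 365 and 456 counts (GFP), 509, 480 and 549 (LMNA), 434, 390 and 458 (LMNB1) and 324, 327 and 285 (LMNB2). In CPM, MIR18A had 3.62 ± 1.73 (GFP), 3.23 ± 0.0753 (LMNA), 2.55 ± 0.147 (LMNB1) and 2.02 ± 0.0690 (LMNB2), and the GFP mean rests on replicate 1 (5.62), since replicates 2 and 3 (2.68 and 2.57) lay below all LMNA libraries. Without GFP replicate 1, the log2 fold change of MIR18A for LMNA was 0.28 (SE 0.17, adjusted p = 0.730 by edgeR) in place of -0.16. The 3 lamin groups did not overlap each other for MIR18A, while the GFP range overlapped LMNA and LMNB1. How many of all intervals had such a layout was not computed.

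MIR92A1 had 2482, 3580 and 9241 counts (GFP), 2591, 5716 and 4337 (LMNA), 4977, 4521 and 5323 (LMNB1), and 3222, 3176 and 2514 (LMNB2). In CPM, LMNA replicate 1 (16.1) was below every LMNB2 library (17.9 to 20.3). MIR19B1 had 1175, 2112 and 1622 counts in GFP and 1274, 1351 and 1322 in LMNB2, where its CPM of 8.57 ± 0.857 overlapped 11.6 ± 3.44. For MIR19B1 the LMNB2 libraries (7.68 to 9.39 CPM) were below all LMNA and LMNB1 libraries (12.9 to 15.5), a separation whose share over all intervals was not computed. In miR-106b-25, LMNB2 overlapped GFP in all 5 intervals, and without GFP replicate 3 their log2 fold changes lay between -0.12 and 0.19.

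The values for LMNB2 also moved with the scale. As a share of all microRNA counts, miR-17-92 made up 2.58% ± 0.182 for GFP, 2.67% ± 0.369 for LMNA, 2.77% ± 0.0643 for LMNB1 and 2.26% ± 0.102 for LMNB2 (SD, n = 3). The miR-106b-25 share was 1.19% ± 0.577, 1.15% ± 0.158, 1.20% ± 0.0856 and 0.934% ± 0.0586. The microRNA total summed all microRNA intervals, overlapping hairpin and mature intervals included, while each cluster sum took 1 interval per gene. On this scale LMNB2 lay below all GFP libraries for 1 of 11 intervals, MIR19A, the interval that led the choice. It was at 0.0106% ± 0.00147 of microRNA counts against 0.0223% ± 0.00644 in GFP, and below the other 9 libraries too. How many other intervals did so on this scale was not computed. The summed miR-17-92 share of LMNB2 (2.15% to 2.35%) also lay below all GFP libraries (2.37% to 2.73%), while LMNA replicate 1 (2.24%) lay within the LMNB2 range. Fitted and scaled on microRNA intervals alone, the median log2 fold change of the members was -0.12 for LMNA, -0.03 for LMNB1 and -0.19 for LMNB2. MIR19A was at -0.85 (SE 0.24) and MIR93 at 0.02 (SE 0.25) for LMNB2 in that fit.

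**Figure D3:**
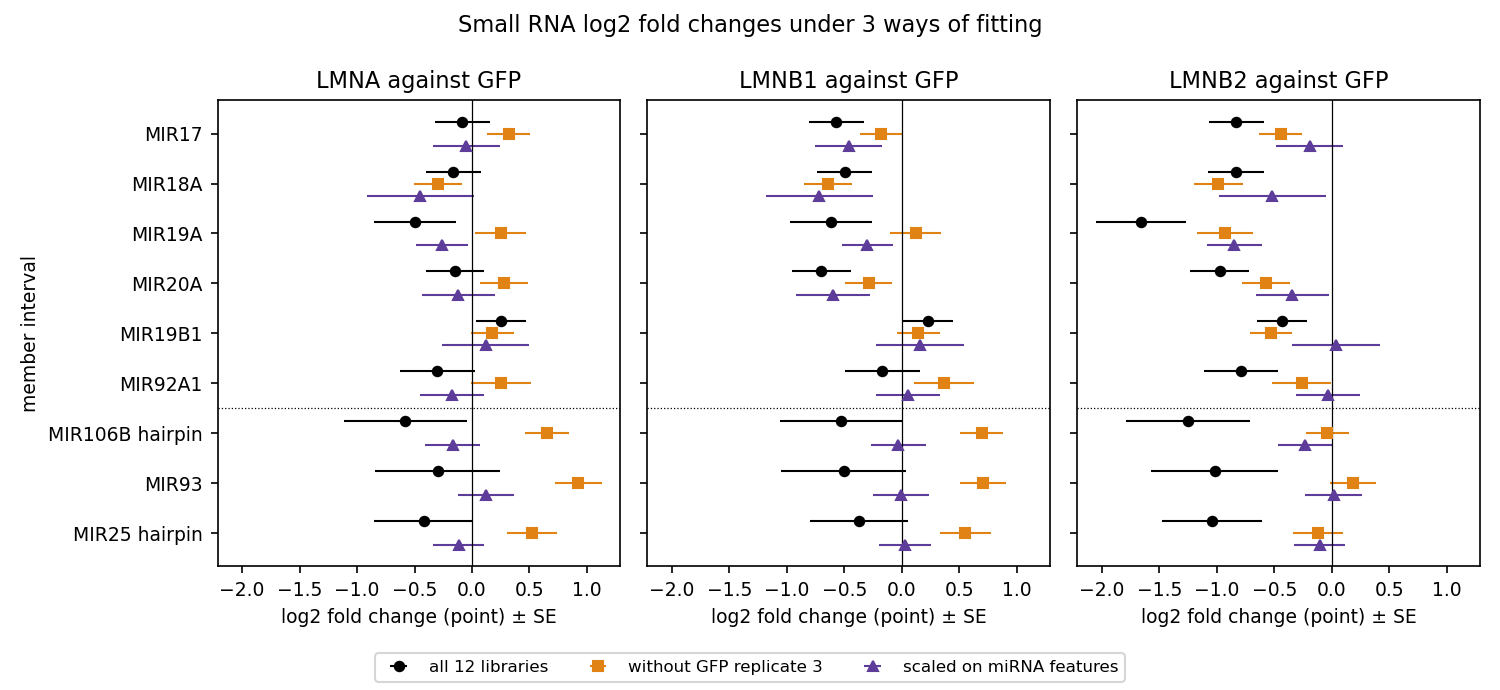
Log2 fold changes (points) with SE (bars) of 9 member intervals for each lamin against GFP, fitted with all 12 libraries (black), without GFP replicate 3 (orange) or on microRNA intervals alone (purple). The miR-106b-25 values change side without GFP replicate 3 for LMNA and LMNB1, and for LMNB2 MIR19B1 and MIR93 are the ones not below 0 in all 3 fits.

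MIR17HG, the host transcript of miR-17-92, gave almost no counts outside the hairpins. The table has 15 overlapping MIR17HG intervals, and of the shortest that spans all 6 hairpins (chromosome 13 from 91347917 to 91352121, GRCh38), 99.3% to 99.7% of counts in each library lay in the 6 member intervals. None of the 15 was called for LMNA, LMNB1 or LMNB1 against LMNA by edgeR, and 0 had an unadjusted p under 0.05. Without GFP replicate 3, 1 of the 15 was called for LMNA by edgeR, beside 304 of 36091 intervals (0.842%) in that fit.

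Related hairpins on chromosome X, the miR-106a-363 cluster, share mature strands with 2 members. MIR92A2 gives the same miR-92a-3p as MIR92A1, and its interval had 2034 to 8932 counts, 80.1% to 101% of those of MIR92A1 in the same library. MIR19B2 gives the same miR-19b-3p as MIR19B1, but its hairpin interval had 0 to 17 counts, at most 1.05% of those of MIR19B1. Counts were thus alike at both miR-92a loci but not at the miR-19b loci, and which strand gave the MIR19B1 counts is not known. MIR92A1 counts cannot be assigned to chromosome 13 alone. How reads with several matches were handled is not given in the sources used here. Of the 7 intervals of the 6 chromosome X genes, 4 passed the filter, and 0 were called for LMNA, LMNB1 or LMNB1 against LMNA. MIR18B and MIR20B, copies of MIR18A and MIR20A, reached 27 and 60 counts at most, far under their chromosome 13 relatives.

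**Figure D4:**
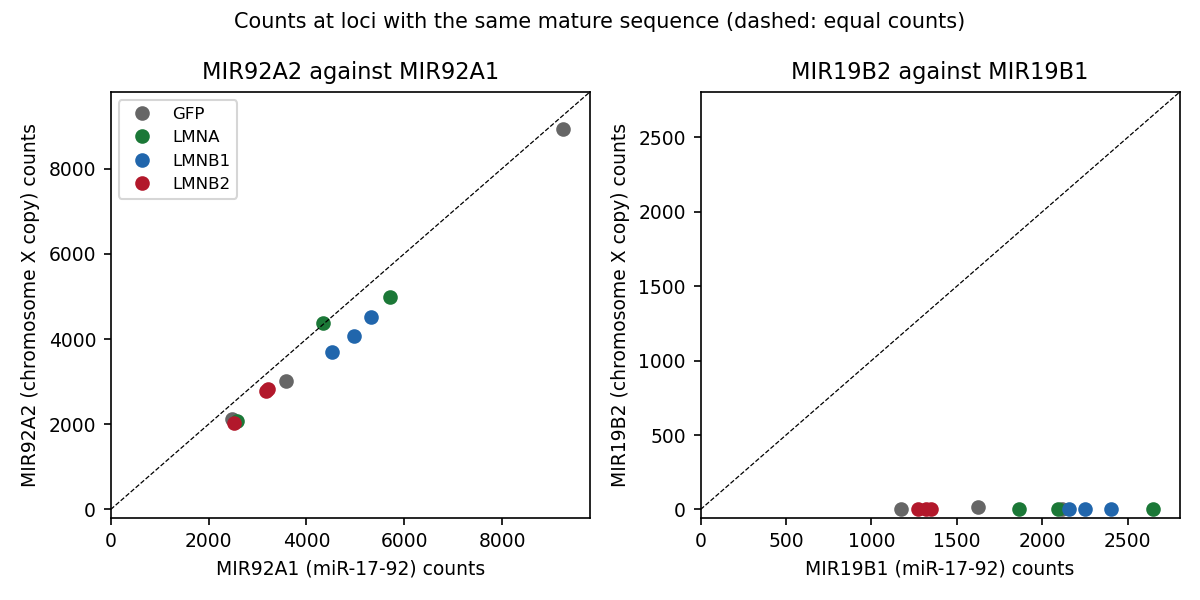
Counts at the chromosome X copy (y axis) against the miR-17-92 copy (x axis) in 12 small RNA libraries, coloured by group, with equal counts dashed. MIR92A2 lies near the dashed line in every library, and MIR19B2 lies at 0 to 17 counts while MIR19B1 has 1175 to 2645.

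Chromatin accessibility was measured in a window of 321 to 384 bases centred on each member interval, and in flanks of 500, 5000 and 50000 bases that start 350 bases outside that window. Neighbouring windows of a cluster overlap, so their counts are not independent. The windows of the 2 clusters differed in level. The 6 miR-17-92 windows had 3 to 31 counts per library. MIR19A had 6, 8 and 15 counts in GFP, and 0.167 ± 0.0642, 0.183 ± 0.0263, 0.104 ± 0.0186 and 0.169 ± 0.0531 CPM per kilobase for GFP, LMNA, LMNB1 and LMNB2 in turn (SD, n = 3). The MIR106B hairpin window had 77, 60 and 68 counts in GFP, and 1.04 ± 0.203, 0.905 ± 0.153, 1.15 ± 0.167 and 0.848 ± 0.0797 CPM per kilobase. The log2 ratio of the window to its own 5000-base flanks in GFP was -2.17 ± 0.359 for MIR17 and 0.53 ± 0.14 for the MIR106B hairpin. That of MIR17 turned with the flank length, to 0.89 ± 0.492 with 500-base flanks and 0.11 ± 0.314 with 50000-base flanks, while that of the MIR106B hairpin was 0.94 ± 0.277 and 0.76 ± 0.169.

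The high flank of miR-17-92 was the upstream one. The 5000 bases upstream of MIR17 had 1073, 1082 and 1059 counts in GFP, and 1.24 ± 0.133, 1.15 ± 0.0458, 1.13 ± 0.0717 and 1.07 ± 0.104 CPM per kilobase in the 4 groups. Downstream, the same length had 0.0559 ± 0.0162 CPM per kilobase in GFP and 0.0548 ± 0.00389 in LMNB2. The upstream flank holds the RefSeq start of MIR17HG (chromosome 13, position 91347687). The bases around that start are shown because the accessible flank contains them, with matches to a GC box (GGGCGG) or a CCAAT box (CCAAT), on either strand, in capitals, from RefSeq (GRCh38.p14, chr13:91347437-91347736, plus strand).
MIR17HG promoter: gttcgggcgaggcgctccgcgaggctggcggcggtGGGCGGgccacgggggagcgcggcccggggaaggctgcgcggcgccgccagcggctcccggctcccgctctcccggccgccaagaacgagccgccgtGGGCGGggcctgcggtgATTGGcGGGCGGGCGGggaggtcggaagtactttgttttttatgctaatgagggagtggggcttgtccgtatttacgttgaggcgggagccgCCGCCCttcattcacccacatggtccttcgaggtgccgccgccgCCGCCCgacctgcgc
It holds 6 GC box matches, 2 of them overlapping, and 1 CCAAT match, while 45% and 34.6% of 35116 RefSeq promoters of this length hold at least 1 of each. No E-box (CACGTG, in 7.26% of promoters) or TATA box (TATAAA, in 11.5%) letters were in this stretch.

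**Figure D5:**
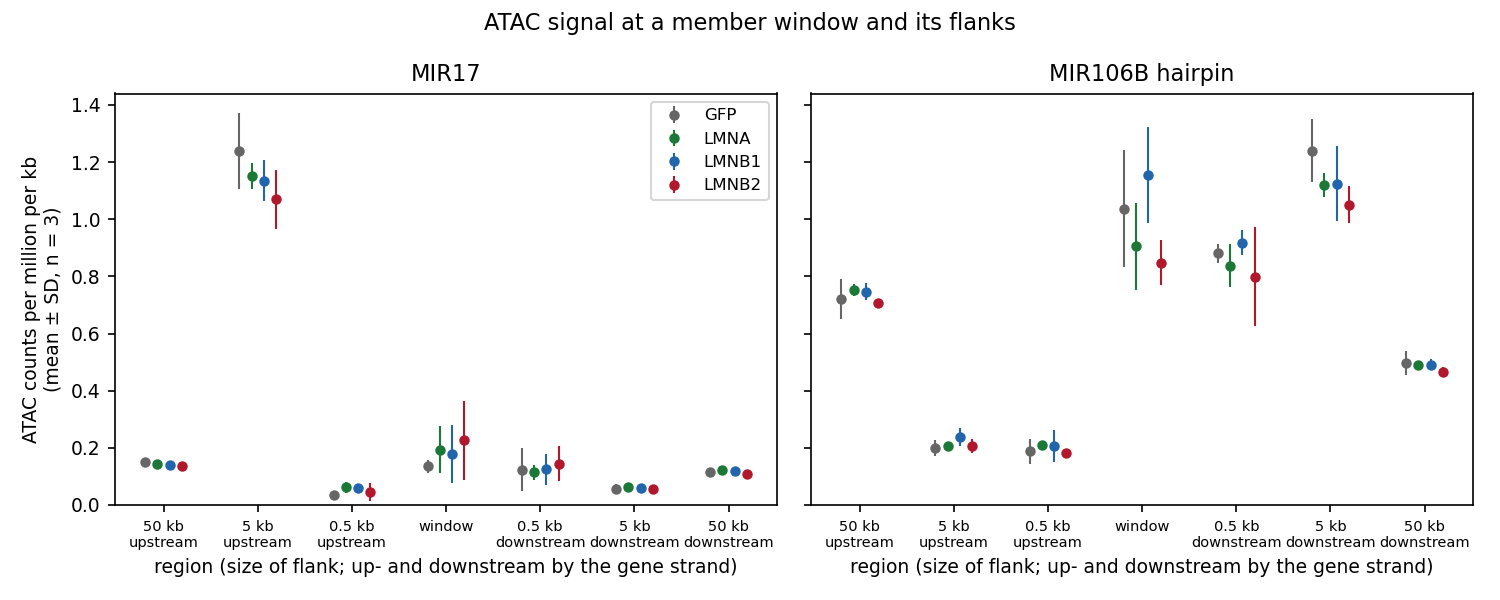
ATAC CPM per kilobase (mean ± SD, n = 3) at the window and flanks of MIR17 (left) and of the MIR106B hairpin (right), by group. For MIR17 the 5 kb upstream flank, at 1.07 to 1.24, is above the window and the other flanks, and for MIR106B the window and its 5 kb downstream flank are both above its 5 kb upstream flank.

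Accessibility of the members did not differ detectably between groups. By edgeR's quasi-likelihood test over 163786 windows, 0 of 11 member windows were called for LMNA (0.000611% of all windows called), LMNB1 (0.00305%) or LMNB2 (0.00244%) against GFP, and 0 had an unadjusted p under 0.05 in any of them. Without GFP replicate 3 of the ATAC libraries, 222 windows were called for LMNA, 0 of them members. DESeq2 gave no adjusted p for the member windows, and 0 of 11 had an unadjusted p under 0.05 by it in each comparison. The low counts of the miR-17-92 windows left wide errors, and for LMNB2 the log2 fold change of MIR17 was 0.65 (SE 0.57, adjusted p = 0.923 by edgeR) and that of MIR19A was -0.0025 (SE 0.49, adjusted p = 1.00). The miR-106b-25 windows had SEs of 0.20 to 0.26. The lowest value for LMNB2 was -0.35 (SE 0.22, adjusted p = 0.911 by edgeR) at the MIR106B mature window. LMNB2 lay wholly below GFP for 1 of 11 windows, the MIR106B hairpin, where 4.72% of all windows did so. LMNA and LMNB1 lay wholly below GFP for 0 of 11, against 4.74% and 3.84% of all windows.

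The windows on MIR17HG had higher counts and also gave no call. That of the interval from 91347662 to 91352121 on chromosome 13 had 5.20 ± 0.542 CPM for GFP, 4.94 ± 0.229 for LMNA, 4.81 ± 0.303 for LMNB1 and 4.62 ± 0.594 for LMNB2 (SD, n = 3). Its log2 fold change for LMNB2 was -0.17 (SE 0.09, adjusted p = 0.887 by edgeR), and 0 of 15 MIR17HG windows were called for any lamin. Of these 15, which overlap each other, 5 had an unadjusted p under 0.05 for LMNB2, as did 9368 of all 163786 windows. The median log2 fold change of the 15 for LMNB2 was -0.18.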

How the data were processed

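Small RNA and ATAC libraries (12 each) came as 2 deposited tables of whole-number counts per non-coding interval that the authors had made before deposit, on GRCh38 per the submitters' processing notes. The aligner, the counter and the handling of strand and of reads with several matches are not given in the sources used here. Groups came from the sample labels, and 0 count columns were left unmapped. Counts were fitted across each whole table with edgeR 4.0.16 (R 4.3.3): filterByExpr, TMM scaling, 1 mean per group over all 12 libraries, the quasi-likelihood test, and Benjamini-Hochberg adjustment over 33893 small RNA or 163786 ATAC intervals, called at an adjusted p under 0.05. CPM used TMM-scaled totals, and fitted log2 fold changes used a prior count of 2. DESeq2 1.42.0, other scalings and filters, a replicate block and leaving out each library were alternatives. The fit was tested on simulated data with changes placed in LMNB2 against GFP. Changes of 2 log2 units were recovered for 80% of intervals in small RNA and 98% in ATAC. Changes of 1 log2 unit were recovered for 13% and 85%, and 7.92% and 3.17% of calls were false. An absent small RNA call thus does not exclude a change of 1 log2 unit. These rates are over simulated intervals, and none was computed for the member intervals. The ATAC rates cannot be carried over to member windows with few counts. For LMNB2 against GFP the ATAC log2 fold change had an SE of 0.57 for MIR17 and 0.49 for MIR19A. An absent ATAC call at such windows does not exclude a change of 1 log2 unit either. Levels of 1 gene against another were compared per kilobase.

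All intervals of the 9 genes were named whatever their values. Members and lists (host transcript, chromosome X paralogs, other polycistronic microRNAs, markers of other cell types) were chosen with earlier results of these data known. For likeness, the 3 intervals of highest Pearson r per cluster were named among 231 candidates. Precision was lowest for MIR19A (18 to 162 small RNA counts per library) and for the miR-17-92 ATAC windows (3 to 31).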

Additional observations from a re-analysis of the deposited data

How the results depend on the processing

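For LMNB1 against GFP, LMNB1 against LMNA and the 3 ATAC comparisons, the count of called members was 0 under every alternative that was run; the DESeq2 test could not be used for the ATAC members, to which it gave no adjusted p. For LMNA against GFP it was 0 except without GFP replicate 3, where it was 1 (range 0 to 1 over single libraries left out): MIR93 then had a log2 fold change of 0.93 in place of -0.30, within a range of -0.72 to 0.93. For small RNA LMNB2 against GFP, a description, member calls are not counted, because this contrast chose the members. The median log2 fold change of the members was -1.02 there. It ran from -1.41 without GFP replicate 1 to -0.19 on microRNA intervals alone, and was -0.90 with the replicate block. Replicate numbers are shared across groups, but the labels do not say that they pair samples. For each library, deviations of log2 CPM from its group mean were correlated with those of libraries of other groups. Between same-numbered libraries these correlations were -0.04 to 0.23 in small RNA and -0.08 to 0.19 in ATAC, over 18 pairs each. The best match in another group had the same number for 8 of 12 small RNA and 6 of 12 ATAC libraries. The cause of these changes was not tested.

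Member log2 fold changes switched sign in 11 of 219 alternatives for LMNA (9 of them without GFP replicate 3) and 10 of 220 for LMNB1 (7). They did so in 13 of 220 for LMNB1 against LMNA and in 3 of 220 for LMNB2. In ATAC they did so in 15 of 207, 20 of 207 and 12 of 209 for LMNA, LMNB1 and LMNB2. Counts over all intervals moved more. In small RNA, LMNA went from 0 to 111 with no filter, 70 by DESeq2 and 304 without GFP replicate 3. LMNB1 went from 13 to 127, 21 and 36, with 0 on microRNA intervals alone and 6 with only the libraries compared, and LMNB2 from 901 to 1745 with no filter, 282 with total counts, 13 on microRNA intervals alone, 21 with only the libraries compared, and 51 to 2101 over single libraries left out. LMNB1 against LMNA went from 4 to 146, 10, 0 and 103 (no filter, DESeq2, microRNA intervals alone, only the libraries compared) and to 16 without LMNA replicate 2. The log2 ratio of a miR-17-92 ATAC window to its flanks moved with both other flank lengths in every group. In ATAC, total counts gave 184, 110 and 99 in place of 1, 5 and 4, DESeq2 gave 60, 62 and 116, only the libraries compared gave 0, 19 and 67, and the replicate block gave 60 for LMNA, where leaving out single libraries gave 0 to 222 (222 without GFP replicate 3).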

Other observations

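Other microRNAs made from shared transcripts also had no tested call in the fit with all libraries. Of 26 such genes on the list (among them MIR221 and MIR222, MIR182 and MIR183, and the MIR15A, MIR23A and MIR29A groups), 18 had at least 1 of their 27 intervals past the count filter. By edgeR 0 of the 27 were called for LMNA, LMNB1 or LMNB1 against LMNA, with 0 at an unadjusted p under 0.05, and median log2 fold changes of -0.68, -0.51 and 0.09. Without GFP replicate 3 these were 0.44, 0.66 and 0.08, with 1, 0 and 0 called, beside 304, 36 and 7 of all 36091 intervals. In that edgeR fit 11, 16 and 2 of the 27 had an unadjusted p under 0.05, as did 4628, 3658 and 2998 of all intervals. The median for LMNB2 against GFP was -1.28, and -0.17 without GFP replicate 3, given as a description. MIR222, which represses the cell cycle inhibitor p27, had 24.4 ± 15.9 CPM for GFP, 18.7 ± 4.14 for LMNA, 18.4 ± 2.37 for LMNB1 and 10.0 ± 1.14 for LMNB2 (SD, n = 3), with 42.4 CPM in GFP replicate 3 and 18.7 in replicate 2, the higher of the other two. MIR182, of a sensory-organ cluster, had 9.48 ± 9.55, 6.03 ± 1.38, 6.42 ± 0.559 and 3.90 ± 0.386 CPM in the same order, with 20.4 in GFP replicate 3 and 2.57 in replicate 1, the lowest.

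Among 231 candidate microRNA intervals, those most like the miR-106b-25 profile (the mean of its genes' centred log2 CPM) over the 12 small RNA libraries were MIR10A (Pearson r = 0.991, 0.979 without GFP replicate 3), MIR10B (0.989 and 0.972) and an interval on chromosome 1 from 40757314 to 40757385 (0.986 and 0.958), which the table names MIR30C-2 and Mir30c-1 and where RefSeq places MIR30C1. MIR10A and MIR10B lie in HOX gene clusters. Those most like miR-17-92 were MIR1292 (0.956 and 0.934), MIR744 (0.952 and 0.930) and MIR760 (0.906 and 0.859). By Spearman's rho, MIR10A and MIR10B were again among the 3 most like miR-106b-25 and MIR744 among the 3 most like miR-17-92. The points share library scaling and GFP replicate 3, and these correlations are descriptions.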
